A study of Canis lupus familiaris with 15 samples.

Results

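The 5 genes described here, ADM5, C10orf10, C5AR2, TTC9 and ZSWIM4, had higher mean levels in the canine corpus luteum (CL) at natural luteolysis before birth than in non-pregnant luteal regression, and after induced luteolysis than at mid-gestation. They were selected by the study as the differentially expressed genes (DEG) with a log2 ratio below −1 in “mid-gestation over antigestagen” as well as in “luteal regression over luteolysis”, and they are 5 of the 23630 genes counted. Messenger RNA was sequenced from the CL of 15 clinically healthy cross-breed bitches aged 2 to 8 years, with 1 library per dog. The luteolysis group held 3 pregnant dogs, Amy, Kimba and Senta, operated on at or after day 58 of pregnancy when progesterone (P4) in plasma, sampled every 6 h, had stayed under 2 to 3 ng/ml at 3 samplings. The antigestagen group held 5 pregnant dogs, Citir, Suzan, Birnur, Seran and Zeynep, which received aglepristone at 10 mg per kg on 2 occasions 24 h apart and were operated on between days 40 and 45. The mid-gestation group held 5 untreated pregnant dogs, Nescafe, Turgay, Dardanel, Gold and Kurtulus, at days 35 to 40. The luteal regression group held 2 non-pregnant dogs, Lissy and Mara, on day 65 after ovulation, and a further dog that the methods of the study count in this group was not analysed here. Pregnancy and stage both differed between luteolysis and luteal regression, so their parts cannot be told apart, and the antigestagen dogs were sampled at slightly later days than the mid-gestation dogs that served as their reference.

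In the dog the CL is the main source of P4 throughout pregnancy, and P4 output falls abruptly just before birth, whereas in the non-pregnant bitch the CL declines slowly. Aglepristone occupies the P4 receptor without activating it and so ends pregnancy while a CL is still present. ADM5 belongs to the adrenomedullin and calcitonin family of secreted peptides. C10orf10, now named DEPP1, was described as a decidual protein induced by P4 and is a known target of forkhead box O (FOXO) factors in fasting and oxidative stress. C5AR2 is a receptor for the complement fragment C5a that does not couple to G proteins, unlike its relative C5AR1. TTC9 is a small protein with tetratricopeptide repeats, and ZSWIM4 is one of a family of proteins with a SWIM-type zinc finger.

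The libraries held 8558743 to 26284315 counted reads, and the lowest total was that of the antigestagen dog Citir. Levels are given as reads per 1000000 reads counted in the dog (CPM), after TMM scaling of the libraries. The 5 genes passed the filter on low counts in every group. TTC9 was the most thinly counted, with 20 to 109 reads per dog, so that its lowest value, 1.03 CPM in Turgay, has an exact Poisson 95% interval of 0.627 to 1.585 CPM that covers counting error only. The lowest counts of the other genes were 53 for ADM5, 103 for ZSWIM4, 220 for C10orf10 and 231 for C5AR2. Of 12 markers of steroidogenic luteal cells, 1 could be matched by name, the prolactin receptor PRLR. It was present at 65.8 to 174 CPM in the 15 dogs. Names were available only for genes that the study had listed as DEG, so the levels of the other markers are unknown here. Each value is from whole tissue, where fewer cells of a type and less RNA per cell cannot be told apart. The RefSeq annotation of a different dog assembly places DEPP1 over the protein-coding gene RASSF4, and C5AR2, TTC9 and ZSWIM4 each over a long non-coding RNA gene. The library kit does not mark strand, so reads from such overlapping genes cannot be told apart.

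ADM5 (ENSCAFG00000028797) showed the largest difference between luteolysis and luteal regression of the 5 genes. In luteolysis its level was 10.7 CPM in Amy, 47.7 in Kimba and 72.0 in Senta, and in luteal regression 5.09 CPM in Lissy and 2.72 in Mara. In the antigestagen group it was 13.6 CPM in Citir, 23.2 in Suzan, 30.3 in Birnur, 68.5 in Seran and 29.6 in Zeynep, against 10.0 CPM in Nescafe, 8.21 in Turgay, 9.94 in Dardanel, 7.14 in Gold and 15.2 in Kurtulus at mid-gestation. The group means were 43.5 ± 30.9 CPM in luteolysis (SD, n = 3), 33.0 ± 20.9 with antigestagen (n = 5), 10.1 ± 3.1 at mid-gestation (n = 5) and 3.91 ± 1.67 in luteal regression (n = 2). The luteolysis and luteal regression dogs did not overlap, while Citir, the lowest treated dog, lay below Kurtulus. Of the 8 dogs in luteolysis or after antigestagen, 6 were above every dog of the other groups, and Amy and Citir were not.

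C10orf10 (ENSCAFG00000007018) was highest after antigestagen. The treated dogs had 63.9 CPM in Citir, 52.0 in Suzan, 115.6 in Birnur, 127.5 in Seran and 186.4 in Zeynep, and the mid-gestation dogs 27.1 CPM in Nescafe, 40.0 in Turgay, 23.5 in Dardanel, 51.4 in Gold and 65.8 in Kurtulus. Luteolysis gave 36.6 CPM in Amy, 35.5 in Kimba and 76.2 in Senta, and luteal regression 15.1 CPM in Lissy and 11.3 in Mara. The means were 109 ± 54.0 CPM with antigestagen (SD, n = 5), 49.4 ± 23.2 in luteolysis (n = 3), 41.6 ± 17.5 at mid-gestation (n = 5) and 13.2 ± 2.66 in luteal regression (n = 2). The luteal regression dogs were below all 13 dogs of the other groups. These 2 dogs were lower without overlap for 19.6% of all genes against luteolysis and for 16.4% against mid-gestation. The share of genes below all other groups at once was not counted. Amy and Kimba in luteolysis, and Citir and Suzan after antigestagen, were not above Kurtulus, so that 4 of the 8 dogs in luteolysis or after antigestagen exceeded every dog of the other groups.

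C5AR2 (ENSCAFG00000004173) was highest in luteolysis and second after antigestagen. Its level was 23.9 CPM in Amy, 156.0 in Kimba and 133.5 in Senta in luteolysis, and 45.1 in Citir, 27.6 in Suzan, 95.7 in Birnur, 42.6 in Seran and 47.9 in Zeynep after antigestagen. At mid-gestation it was 12.1 CPM in Nescafe, 12.9 in Turgay, 17.6 in Dardanel, 16.4 in Gold and 24.2 in Kurtulus, and in luteal regression 23.0 in Lissy and 16.4 in Mara. The means were 104.5 ± 70.7 CPM in luteolysis (SD, n = 3), 51.8 ± 25.8 with antigestagen (n = 5), 19.7 ± 4.67 in luteal regression (n = 2) and 16.6 ± 4.81 at mid-gestation (n = 5). The 5 treated dogs lay above the 5 mid-gestation dogs. Amy alone, of 8 dogs, was not above the highest dog of the other groups.

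TTC9 (ENSCAFG00000025153) was the least abundant of the genes in reads and varied least in luteolysis, with 3.39 CPM in Amy, 3.61 in Kimba and 4.51 in Senta. After antigestagen it reached 2.75 CPM in Citir, 5.26 in Suzan, 4.79 in Birnur, 6.10 in Seran and 4.00 in Zeynep, while Lissy and Mara, in luteal regression, had 1.08 and 1.13 CPM. The mid-gestation dogs had 1.46 CPM in Nescafe, 1.03 in Turgay, 2.96 in Dardanel, 2.87 in Gold and 2.23 in Kurtulus. Means were 4.58 ± 1.28 CPM with antigestagen (SD, n = 5), 3.84 ± 0.597 in luteolysis (n = 3), 2.11 ± 0.851 at mid-gestation (n = 5) and 1.10 ± 0.038 in luteal regression (n = 2). All luteolysis dogs were above all mid-gestation and luteal regression dogs. Citir was the only dog after antigestagen within the range of mid-gestation.

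ZSWIM4 (ENSCAFG00000016604) was low and even at mid-gestation, with 6.37 CPM in Nescafe, 7.08 in Turgay, 8.56 in Dardanel, 7.30 in Gold and 8.28 in Kurtulus. It was 12.4 CPM in Amy, 33.0 in Kimba and 43.6 in Senta in luteolysis, 11.3 in Citir, 36.9 in Suzan, 34.3 in Birnur, 11.9 in Seran and 16.6 in Zeynep after antigestagen, and 12.5 in Lissy and 6.99 in Mara in luteal regression. The means were 29.7 ± 15.9 CPM in luteolysis (SD, n = 3), 22.2 ± 12.4 with antigestagen (n = 5), 9.73 ± 3.88 in luteal regression (n = 2) and 7.52 ± 0.898 at mid-gestation (n = 5). Every dog in luteolysis or after antigestagen exceeded every mid-gestation dog. Lissy lay above Amy, Citir and Seran, so that 5 of the 8 dogs exceeded both reference groups.

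**Figure D1:**
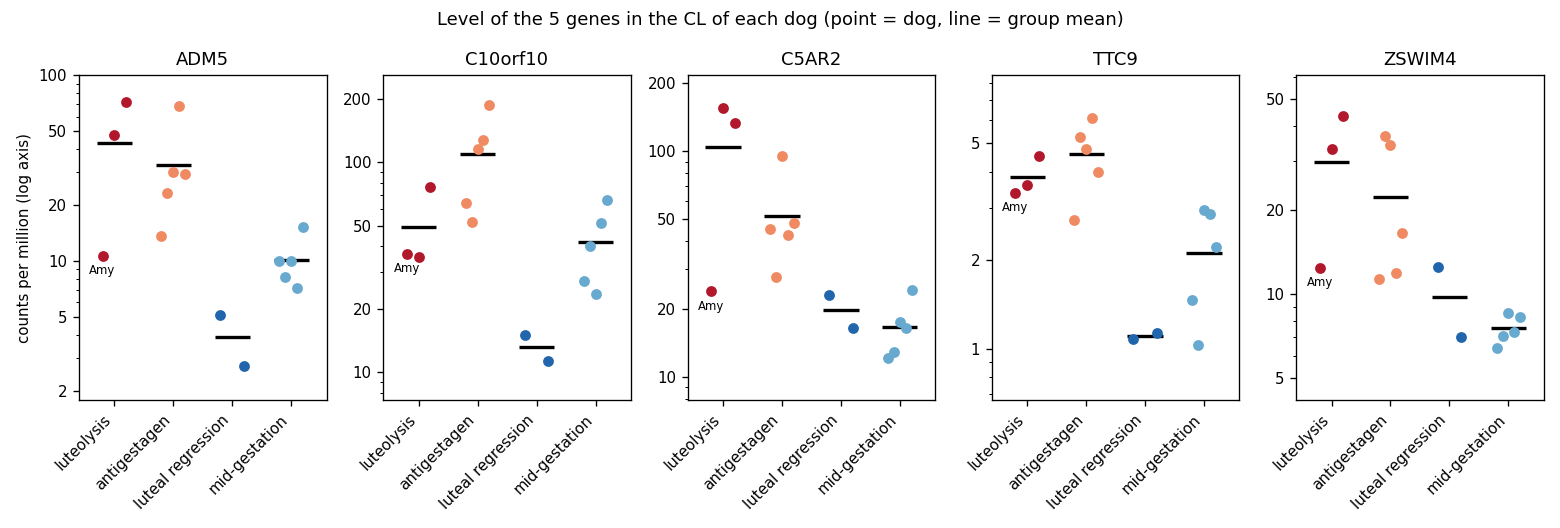
Level of each gene in CPM on a log axis, by group, with 1 point per dog and a line at the group mean. ADM5, C5AR2 and ZSWIM4 are lower in Amy than in Kimba and Senta, the C10orf10 mean is highest after antigestagen (109 CPM), and the TTC9 values stay between 1.03 and 6.10 CPM.

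The log2 ratios, calls and overlaps of dogs in the contrasts that chose the genes are a description, since the selection used these contrasts. In “luteal regression over luteolysis” they were −3.47 ± 0.76 (SE) for ADM5, −2.40 ± 0.64 for C5AR2, −1.91 ± 0.56 for C10orf10, −1.79 ± 0.48 for TTC9 and −1.61 ± 0.56 for ZSWIM4. In “mid-gestation over antigestagen” they were closer together, at −1.71 ± 0.46 for ADM5, −1.64 ± 0.42 for C5AR2, −1.57 ± 0.38 for ZSWIM4, −1.40 ± 0.37 for C10orf10 and −1.13 ± 0.31 for TTC9. With a gene called at p under 0.01 and a Benjamini-Hochberg adjusted p under 0.1, edgeR called all but ZSWIM4 in the first contrast, where it called 5.11% of the 14768 genes tested. That count fell from 4 to 0 without Senta, Lissy or Mara, and when only those groups were fitted. In these fits, in that order, edgeR called 5, 0, 1 and 0 of all genes. In the second it called 0 members and 0.0% of 14399 genes, of which 980 had an unadjusted p under 0.05. By the Wald test of DESeq2, all 5 members and 0.604% of genes were called there. The study chose the members with this tool, so their calls were largely fixed in advance. The 4 called genes of the first contrast were also those whose dogs did not overlap, with luteal regression lower, as 19.6% of all genes did. In the second contrast C5AR2 and ZSWIM4 did not overlap, with mid-gestation lower, as 0.604% of genes did.

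When the rule was applied with the DESeq2 fit, the 5 genes passed it, as their choice with that tool made likely. The members nearest its limit were ZSWIM4, at −1.59 in the first contrast, and TTC9, at −1.14 in the second. Another gene passed as well, OLR1, an oxidised low-density lipoprotein receptor, with log2 ratios of −4.36 and −3.88. OLR1 was at 3.54 CPM in Amy, 156.4 in Kimba and 125.0 in Senta, and at 1.78 to 51.1 CPM after antigestagen. The nearest genes called in both contrasts but outside the limit were ENSCAFG00000015485, at −1.11 and −0.97, and ZFYVE27, which encodes the protein protrudin, at −1.04 and −0.68.

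The groups that the selection did not set against each other in this way were compared crosswise, again as a description because their direction leans on the same choice. In “mid-gestation over luteolysis” the log2 ratio was −2.65 ± 0.46 (SE) for C5AR2, −2.11 ± 0.51 for ADM5 and −1.98 ± 0.42 for ZSWIM4, and these 3 were called by edgeR, as were 8.16% of the genes tested. TTC9 had −0.86 ± 0.35 and C10orf10 −0.25 ± 0.41. For C10orf10 the 95% interval, −1.13 to 0.63, spanned 0 and reached below −1, so neither a difference nor similar levels were shown. Without Senta the C10orf10 ratio was 0.23. TTC9 and ZSWIM4 were lower in every mid-gestation dog than in every luteolysis dog, as were 5.44% of genes. The ratios of “luteal regression over antigestagen” were −3.08 ± 0.72 for ADM5, −3.05 ± 0.57 for C10orf10, −2.06 ± 0.47 for TTC9, −1.39 ± 0.58 for C5AR2 and −1.20 ± 0.52 for ZSWIM4. Here edgeR called 0 members and 0.0% of 14578 genes, of which 2496 had an unadjusted p under 0.05, while DESeq2 called 3 members beside 6.31% of genes and limma-voom called 5 beside 16.5%.

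**Figure D2:**
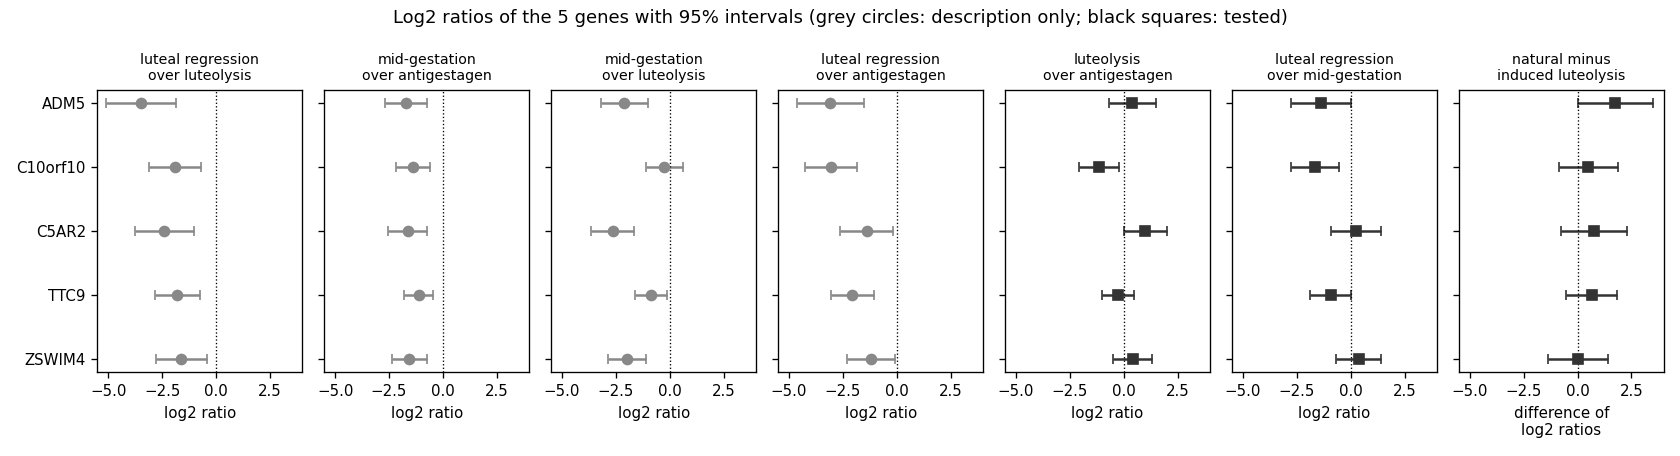
Log2 ratio of each gene with its 95% interval in the 6 contrasts between groups, and the difference of the natural and induced effects in the last panel. Black squares mark what was tested and grey circles what is a description. C10orf10 is the gene whose interval spans 0 in “mid-gestation over luteolysis” (−1.13 to 0.63).

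Natural and induced luteolysis were then set against each other, a comparison whose sign the selection does not fix, although the same dogs chose the genes. The luteolysis dogs were also later in pregnancy and untreated, so the parts of stage and drug cannot be told apart. In “luteolysis over antigestagen” 0 of the 5 genes were called by edgeR, against 4.75% of the 14473 genes tested, and 2 had an unadjusted p under 0.05. C10orf10 had a log2 ratio of −1.15 ± 0.43 (SE), which is 2.21-fold lower in luteolysis, with an adjusted p of 0.175. For C5AR2 the log2 ratio was 1.01 ± 0.46, or 2.01-fold higher in luteolysis, with an adjusted p of 0.260 by edgeR. The other ratios were 0.41 ± 0.42 for ZSWIM4, 0.39 ± 0.51 for ADM5 and −0.27 ± 0.36 for TTC9, with edgeR adjusted p of 0.648, 0.732 and 0.742. Their 95% intervals were −0.48 to 1.31 for ZSWIM4, −0.70 to 1.48 for ADM5 and −1.03 to 0.50 for TTC9, so that a 2-fold higher level in luteolysis lay within the intervals of ADM5 and ZSWIM4, and a 2-fold lower level within that of TTC9. The dogs of the luteolysis and antigestagen groups overlapped for each of the 5 genes, while 7.71% of all genes did not overlap. In all 5, a missed threshold does not show that natural and induced luteolysis gave the same level.

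The luteolysis dog Amy bore on this comparison. Without Amy, the C5AR2 ratio was 1.49 with an adjusted p of 0.0123 by edgeR, and C5AR2 was called, as were 14.8% of all genes in that fit. With the other dogs left out in turn, the C5AR2 log2 ratio stayed positive, down to 0.61 without Kimba. DESeq2 called C10orf10, at −1.15 with an adjusted p of 0.0801, beside 10.3% of all genes. With limma-voom, which called 19.6%, C10orf10 had −0.61 and an adjusted p of 0.291, and ADM5 had 0.99 and an adjusted p of 0.0748 without being called. Without Senta the ADM5 ratio became −0.18. The C10orf10 ratio was −0.85 to −1.61 over the 15 fits that each left out a dog.

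**Figure D3:**
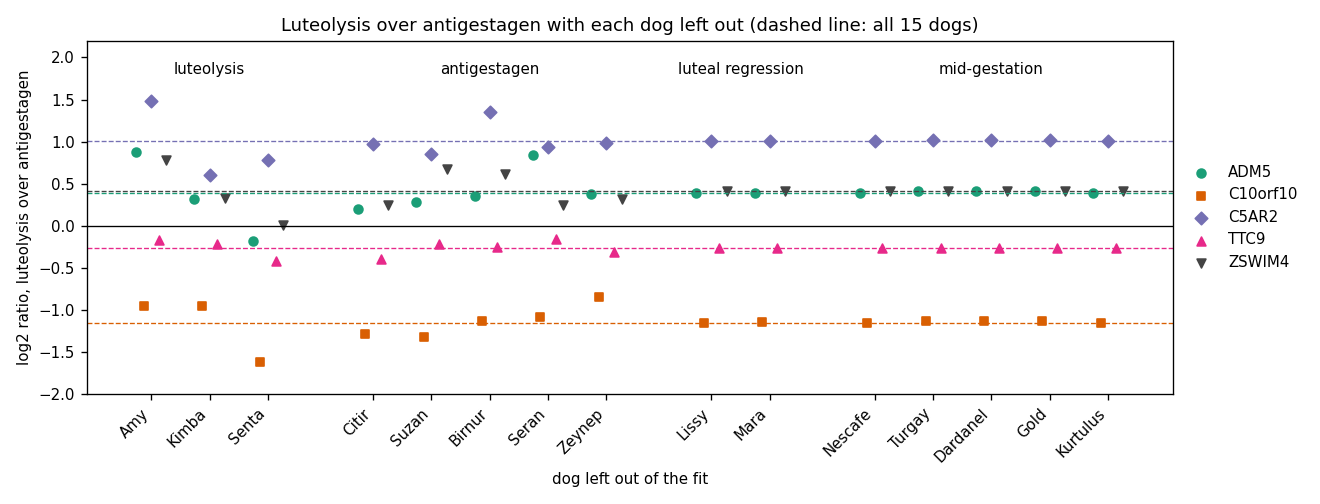
Log2 ratio of “luteolysis over antigestagen” for each gene, by the dog left out of the fit, with dashed lines at the ratios of all 15 dogs. C5AR2 is highest without Amy (1.49) and C10orf10 is lowest without Senta (−1.61), and leaving out dogs of the reference groups moves the points little.

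The reference groups, non-pregnant luteal regression and mid-gestation, were likewise compared. They differed in pregnancy and in day after ovulation, whose parts cannot be told apart. In “luteal regression over mid-gestation” 0 members were called by edgeR, as were 0.0% of the 14685 genes tested, of which 2073 had an unadjusted p under 0.05. C10orf10 was the member with the smallest p, with a log2 ratio of −1.65 ± 0.53 (SE), an unadjusted p of 0.00665 and an adjusted p of 0.319 in edgeR. It was called by DESeq2 (adjusted p = 0.0641, with 2.26% of genes called), by limma-voom (0.0226, with 18.7%) and by edgeR with the dogs of these groups alone (0.0857, with 5.24%). ADM5 had −1.37 ± 0.66 and TTC9 −0.93 ± 0.44, with edgeR adjusted p of 0.360 for both. C5AR2, at 0.25 ± 0.53, and ZSWIM4, at 0.37 ± 0.48, were on the other side of 0, with edgeR adjusted p of 0.845 and 0.729, and both turned negative without Lissy. ADM5 and C10orf10 were lower in both luteal regression dogs than in each mid-gestation dog, as 16.4% of genes were. With 2 dogs in luteal regression, the intervals were wide, from −2.77 to 0.04 for ADM5 and from −0.89 to 1.39 for C5AR2.

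By their group means, the genes thus fell into different orders. ADM5 was highest in luteolysis, then antigestagen, mid-gestation and luteal regression, whereas C10orf10 and TTC9 ran from antigestagen through luteolysis and mid-gestation to luteal regression. C5AR2 and ZSWIM4 ran from luteolysis through antigestagen and luteal regression to mid-gestation. In all 5 orders the upper neighbours, luteolysis and antigestagen, and the lower neighbours, luteal regression and mid-gestation, did not differ past the threshold in the edgeR fit of all 15 dogs, with the exceptions in other fits given above for C5AR2 and C10orf10.

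The change of a gene in natural against induced luteolysis was tested as a difference of log2 effects. It was luteolysis over luteal regression minus antigestagen over mid-gestation. The selection required both effects to be large in these same dogs, though not which was the larger. The p-values of this difference therefore carry that selection and are no independent evidence. The effects have unlike references, non-pregnant and mid-pregnant dogs, so the difference also holds that between the references. For ADM5 the log2 ratio was 0.39 in “luteolysis over antigestagen” and −1.37 in “luteal regression over mid-gestation”. The difference was 1.76 ± 0.83 (SE) for ADM5, with an unadjusted p of 0.0498 and an adjusted p of 0.398 by edgeR. It was 0.76 ± 0.72 for C5AR2, 0.66 ± 0.56 for TTC9, 0.51 ± 0.64 for C10orf10 and 0.04 ± 0.65 for ZSWIM4, with edgeR adjusted p of 0.694, 0.651, 0.783 and 0.987. None was called by edgeR, as were 0.0% of 14922 genes, of which 1869 had an unadjusted p under 0.05. DESeq2 called 0 members and 3.32% of genes, and limma-voom called ADM5, at 2.37 with an adjusted p of 0.0325, beside 17.1% of genes. The interval for ZSWIM4, −1.35 to 1.43, left room for a difference of more than 2-fold in either direction.

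The spread between dogs of a group entered the choice of the genes through the tests of the study, and it is given as a description. On the log2 CPM scale the SD in luteolysis was 1.50 for C5AR2, 1.44 for ADM5, 0.95 for ZSWIM4, 0.62 for C10orf10 and 0.21 for TTC9, where the median SD over all genes was 0.41. After antigestagen the SDs ran from 0.43 for TTC9 to 0.84 for ADM5, again beside a median of 0.41. At mid-gestation C10orf10 and TTC9 both had an SD of 0.62, against 0.17 for ZSWIM4 and a median of 0.34. ZSWIM4 was thus below the median spread at mid-gestation and above it in luteolysis, and TTC9 the reverse.

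Individual dogs stood at the ends of their groups for several genes at once. Amy was the lowest luteolysis dog for 4 of the 5 genes, and Senta the highest for 4. Relative to the group mean, on the log2 CPM scale, Amy was at −1.63 for ADM5 and Senta at 1.11. Within the antigestagen group the highest dog was Seran for ADM5 and TTC9, Zeynep for C10orf10, Birnur for C5AR2 and Suzan for ZSWIM4, so that no treated dog was highest for more than 2 genes. Citir, the treated dog with the fewest reads, was the lowest for ADM5, TTC9 and ZSWIM4, and Suzan for C10orf10 and C5AR2. Kurtulus was the highest mid-gestation dog for 3 genes.

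**Figure D4:**
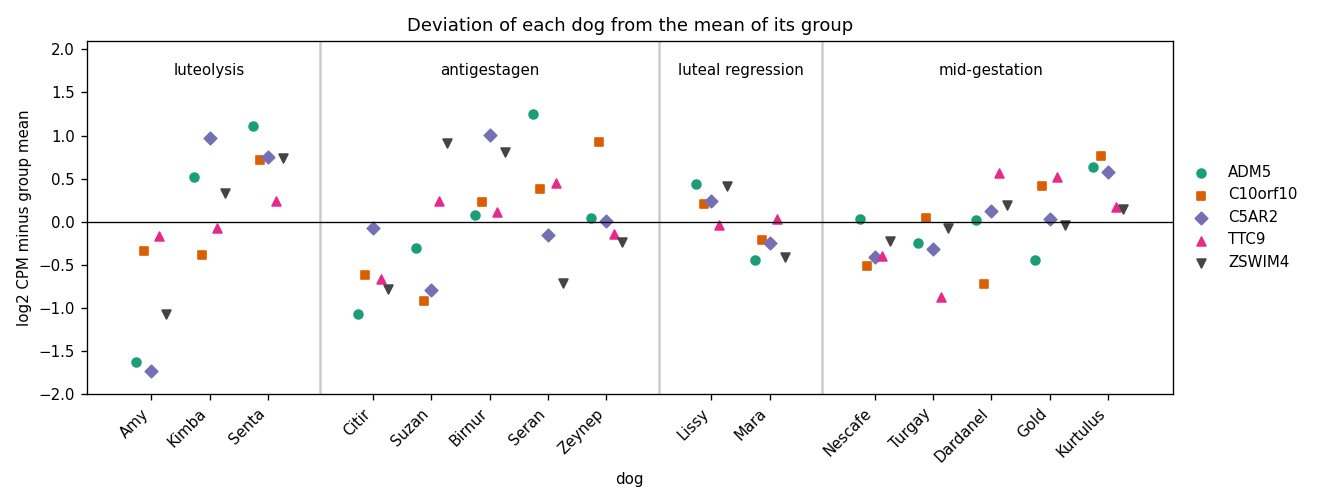
Deviation of each dog's log2 CPM from the mean of its group, with 1 symbol per gene. Amy lies at −1.63 for ADM5 and close to 0 for TTC9, and a different gene leads in most of the antigestagen dogs.

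Covariation within groups was tested on log2 CPM after the group mean was taken off, over 15 dogs and 10 pairs of members. No pair passed an adjusted permutation p of 0.05. The closest pair was ADM5 and C5AR2, with Pearson r = 0.671 (permutation p = 0.0993, adjusted p = 0.308) and Spearman rho = 0.604 (permutation p = 0.0608, adjusted p = 0.237). Its r was 0.627 without Amy and Seran, the dogs farthest from the median of ADM5, and 0.451 without Amy alone. C5AR2 and ZSWIM4 had r = 0.587 (permutation p = 0.133, adjusted p = 0.308) and rho = 0.550 (permutation p = 0.0949, adjusted p = 0.237), and r fell to 0.248 without Amy and Birnur. The lowest r was that of C10orf10 and ZSWIM4, at 0.075 (permutation p = 0.818, adjusted p = 0.818), with rho = −0.011 (permutation p = 0.975, adjusted p = 0.975). This r was 0.409 without Suzan and Zeynep.

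The named genes most alike to each member in this within-group pattern were sought among 2589 genes, as a description over 15 dogs in 4 groups. Both genes of a pair were counted in the same 15 libraries. ZSWIM4 was closest to CD55, which protects cells from complement, at r = 0.941, to CDKN1A, the cell cycle inhibitor p21, at 0.928, and to CKAP2L, a mitotic spindle protein, at 0.914. ADM5 was closest to LCLAT1, an acyltransferase of phospholipids, at 0.933, to PRRG1 at 0.929 and to WARS, the tryptophanyl-tRNA synthetase, at 0.914. C5AR2 was closest to SNX10, a sorting nexin of endosomes, at 0.916, to FHOD3, a formin, at 0.891 and to the collagen-binding integrin ITGA2 at 0.889. For TTC9 the genes were COL21A1, a collagen chain, at 0.842, SYT12 at 0.830 and the mitochondrial ribosomal protein gene MRPS10 at 0.826. For C10orf10 they were RPP40, a ribonuclease P subunit, at 0.840, TRMT12 at 0.824 and WDR46 at 0.761. Without Amy the ZSWIM4 values were 0.878 to 0.934, those of C5AR2 0.657 to 0.754 and those of ADM5 0.823 to 0.867.

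CD55, picked for its likeness to ZSWIM4, had the same low dogs within the luteolytic groups. It was at 190.0 CPM in Amy, 2298 in Kimba and 2297 in Senta, and at 73.1 in Citir, 491.8 in Suzan, 453.1 in Birnur, 102.0 in Seran and 203.3 in Zeynep. Mid-gestation spanned 71.7 to 110.5 CPM, so that, unlike for ZSWIM4, Citir and Seran lay within its range. CDKN1A ran the same way, with 68.2 CPM in Amy beside 1065 in Kimba and 1776 in Senta.

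C5AR1, the G protein-coupled receptor for C5a and the neighbour of C5AR2 in RefSeq, was counted at 3.91 CPM in Amy, 18.6 in Kimba and 19.9 in Senta. After antigestagen it had a mean of 7.58 ± 3.87 CPM (SD, n = 5), in luteal regression 4.78 ± 0.367 (n = 2) and at mid-gestation 5.67 ± 1.32 (n = 5). Its log2 ratio was −1.57 ± 0.60 (SE) in “luteal regression over luteolysis” and −0.43 ± 0.40 in “mid-gestation over antigestagen”, with edgeR adjusted p of 0.176 and 0.878. C5AR1 was not called in any contrast by edgeR. Amy was low for both receptors.

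Other genes of the pathways were read from lists that could be matched only in part, because gene names were available only for genes that the study had listed as DEG in these dogs. Counts over such lists are no independent evidence of a direction. They also leaned on single dogs: in “luteal regression over luteolysis” edgeR called 754 genes in all, but 5 without Senta, 0 without Lissy and 1 without Mara, and each list gene named for that contrast lost its call in those fits. Of these genes, ITGAM, GATA4 and PECAM1 lost theirs there in 11 of the 15 fits that left out a dog. Without Senta, each list gene named for “luteolysis over antigestagen” lost its call too, and so did those named for “mid-gestation over luteolysis” other than CD55, SOD2 and GZMB. Of 34 complement genes, 13 were matched. Of these, 3 fell and 0 rose in “luteal regression over luteolysis”, with a median log2 ratio of −1.10 beside −0.05 over all genes, and those that fell were CD55 (−4.41 ± 1.01 SE, adjusted p = 0.0489 by edgeR), CD59, which blocks the membrane attack complex (−1.87 ± 0.36, adjusted p = 0.0451 by edgeR), and the integrin chain ITGAM (−2.03 ± 0.60, adjusted p = 0.0911 by edgeR). In “mid-gestation over luteolysis” CD55 and CD59 fell and the protease C1R rose (0.89 ± 0.27, adjusted p = 0.0733 by edgeR). CD55 also rose in “luteolysis over antigestagen”, by 2.59 ± 0.65 with an adjusted p of 0.0535 by edgeR.

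The forkhead and starvation list, to which DEPP1 relates, had 9 of 25 genes matched, and the median log2 ratio was 0.52 in “luteal regression over luteolysis”, where 2 genes rose and 2 fell. The genes that fell were SOD2, the mitochondrial superoxide dismutase (−2.05 ± 0.37, SE), and CDKN1A (−4.02 ± 1.17), while the transcription factors KLF15 (1.17 ± 0.30) and FOXO4 (0.77 ± 0.23) rose. Between the luteolytic groups, SOD2 was higher in luteolysis (1.44 ± 0.27, adjusted p = 0.0208 by edgeR) and CITED2, a transcriptional co-regulator, was lower (−1.76 ± 0.40, adjusted p = 0.0396 by edgeR). CITED2 had a mean of 121.6 ± 49.3 CPM after antigestagen (SD, n = 5) and 36.2 ± 18.5 in luteolysis (n = 3). Like that of C10orf10, its mean was higher after antigestagen than in luteolysis. Unlike that of C10orf10, it was also higher in luteal regression (66.1 ± 44.3, n = 2) and at mid-gestation (89.9 ± 17.5, n = 5) than in luteolysis.

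Few relatives of the other members could be matched. Of 10 genes of the adrenomedullin and calcitonin family the receptor partner RAMP3 was matched, and it fell in “luteal regression over luteolysis” (−1.97 ± 0.56, SE, adjusted p = 0.0854 by edgeR) at low levels of 0.257 to 1.87 CPM. Of the TTC9 list, the 4 matched genes of 14 included the tropomyosins TPM1, TPM2 and TPM4, actin-binding proteins, of which all 3 rose in “luteolysis over antigestagen”, by 1.76, 2.30 and 1.56 on the log2 scale (edgeR adjusted p of 0.0225, 0.0373 and 0.0462). TTC9 itself had −0.27 in that contrast. For ZSWIM4, 2 of 16 listed genes were matched, and TCEB1, an elongin, fell in “luteal regression over luteolysis” by 0.88. Of 25 genes of P4 synthesis and action, 6 were matched, among which 3 rose in that contrast (GATA4, GATA6 and SULT1E1, an oestrogen sulfotransferase) and HSD3B7, an enzyme of bile acid synthesis, fell by 1.60. In “mid-gestation over antigestagen” DESeq2 called 2 of the 6, SULT1E1 and the steroid hydroxylase CYP17A1, beside 0.604% of all genes, and edgeR called 0.0%. The study reports both as DEG of this contrast, and its DEG lists supplied the names. The count is therefore no evidence of an excess.

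Markers of other cell types moved with the contrasts as well, and their part in the levels of the 5 genes was not tested. Of 18 myeloid markers 9 were matched, their summed level was 500.0 to 825.5 CPM in luteolysis, 409 to 1128 after antigestagen, 205 to 241 in luteal regression and 404.5 to 874 at mid-gestation, and 0 of the 9 were at 0 in every dog. LYZ, MRC1 and ITGAM, 3 of them, fell in “luteal regression over luteolysis”, and the median log2 ratio was −1.48. ITGAM, C1QB and C1QC were also among the matched complement genes, so the falls of these lists are not separate observations. In “mid-gestation over antigestagen” the myeloid median was −0.20, beside −0.02 over all genes. Of 3 matched endothelial markers, PECAM1 and TEK fell in “luteal regression over luteolysis”, and the summed level was 366 to 801 CPM in luteolysis and 231 to 243 in luteal regression. Of 11 lymphoid markers, CD3E and GZMB were matched. GZMB was at 105.5 ± 103.0 CPM in luteolysis (SD, n = 3) and at 2.88 ± 1.32 after antigestagen (n = 5). In “luteolysis over antigestagen” its log2 ratio was 5.155 ± 0.94 (SE), but the median of both was 1.95, so CD3E lay below 0. The summed lymphoid level was 1.36 to 207 CPM in luteolysis and 1.43 to 6.09 after antigestagen. Of 4 matched fibroblast markers COL1A1 and COL3A1 rose in “mid-gestation over luteolysis”. PRLR was lower in every luteolysis dog (at most 95.04 CPM) than in every antigestagen dog (at least 119.9 CPM), with a log2 ratio of −0.86 ± 0.26 (SE) and an edgeR adjusted p of 0.100, at the limit for a call. DESeq2 and limma-voom called it there.

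Within groups, the mean log2 CPM of the 9 myeloid markers was set against each member over 15 dogs, and 0 of the 5 relations passed an adjusted permutation p of 0.05. ADM5 came closest, with r = 0.756 (permutation p = 0.030, adjusted p = 0.150) and rho = 0.686 (permutation p = 0.0318, adjusted p = 0.159), and its r was 0.528 without Amy and Seran. C5AR2 had r = 0.678 (permutation p = 0.0964, adjusted p = 0.161) and rho = 0.596 (permutation p = 0.0755, adjusted p = 0.189), with r = 0.642 without Amy and Birnur and 0.455 without Amy alone. TTC9 and C10orf10 had r of 0.422 and 0.397, and ZSWIM4 0.218, with adjusted permutation p of 0.161, 0.259 and 0.615.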

How the data were processed

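The authors trimmed CL tissue, prepared poly-A libraries with a kit that does not mark strand and sequenced single ends of 125 bases. According to the submitters' processing notes and the methods of the study, reads were called with CASAVA 1.8 and bcl2fastq 1.8.4, aligned to CanFam3.1 with STAR 2.5.1b and counted per gene with featureCounts. The counts were used as deposited, and the 3148 values of at least 10000 were all rounded to 4 significant digits. Groups came from the condition label, and for Nescafe the description carries another group number than the title and condition. Replicates are dogs. All 15 dogs were fitted with group as the single factor in edgeR 4.0.16 (TMM, quasi-likelihood F-test), on the 14922 genes whose mean count reached 10 in any group. DESeq2 1.42.0 and limma-voom (limma 3.58.1), other scalings and filters, and each dog left out were alternatives. The edgeR step was tested on simulated counts. Correlations used log2 CPM with a prior count of 2 and 100000 permutations within groups. The members and the 11 gene lists were chosen with earlier results of these data known. Genes named beside the members were the list genes of smallest p (up to 4 per list and contrast), relatives of the members and the 3 most alike genes. OLR1, inside the limit of the rule, was named after its values were seen. Names were taken from the study's gene lists and covered 2970 identifiers, which matched 8.33% to 50.0% of a list, under the 80% set for a list to be read as a whole. RefSeq names and neighbours are those of the assembly UU_Cfam_GSD_1.0. Promoter and protein sequences were not used here.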

Additional observations from a re-analysis of the deposited data

How the results depend on the processing

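Of 764 log2 ratios recomputed for the 5 genes in 7 contrasts, 12 changed sign, and 6 in the 3 contrasts with a test came to pass its threshold. The number of members called moved in all 7 contrasts. In “luteal regression over luteolysis” it was 4 with all dogs, 0 with only the dogs of these groups, and 0 to 5 with a dog left out (0 without Senta, Lissy or Mara, and 2 without Birnur or Gold). Over all genes the calls there numbered 754, and 0 with only these dogs. Without Senta, Lissy, Mara, Birnur or Gold they numbered 5, 0, 1, 460 and 443. In “mid-gestation over luteolysis” it was 3, and 1 to 3 with a dog left out (1 without Senta). Calls over all genes there went from 1197 to 112 without Senta. In “mid-gestation over antigestagen” it was 0, 5 by DESeq2 and 0 to 0 with a dog left out. DESeq2 called 87 genes in all there. In “luteal regression over antigestagen” it was 0, 3 by DESeq2, 5 by limma-voom, and 0 to 3 with a dog left out (3 without Amy or Citir). Calls over all genes there were 0, 920 by DESeq2, 2408 by limma-voom, 114 without Amy and 91 without Citir. In “luteolysis over antigestagen” it was 0, 1 by DESeq2 and 0 to 1 with a dog left out (1 without Amy). Calls over all genes there were 687, 1486 by DESeq2 and 2169 without Amy. In “luteal regression over mid-gestation” it was 0, and 1 by DESeq2, by limma-voom and with only the dogs of these groups. Calls over all genes there were 0, 332 by DESeq2, 2741 by limma-voom and 770 with only these dogs. For the difference between natural and induced luteolysis it was 0, and 1 by limma-voom, which called 2549 genes in all. The number of pairs that varied together was 0, and 0 to 1 with a dog left out (1 without Suzan).

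The difference for ZSWIM4 was −0.056 with upper quartile scaling and lay between −0.40 and 0.52 with a dog left out, below 0 without Kimba (−0.04), Senta (−0.40), Citir (−0.12), Mara (−0.32), Seran (−0.16), Zeynep (−0.08) or Dardanel (−0.03). Without Senta, ADM5 was −0.18 in “luteolysis over antigestagen” (up to 0.88 with another dog left out) and C10orf10 0.23 in “mid-gestation over luteolysis” (down to −0.47). Without Lissy, C5AR2 was −0.017 and ZSWIM4 −0.11 in “luteal regression over mid-gestation” (up to 0.47 and 0.73). The number of list genes called moved in 254 of 1676 recomputations. Upper quartile scaling moved the median log2 ratio of all genes in “luteal regression over luteolysis” from −0.05 to 0.06, and the genes called there from 225 higher and 529 lower to 291 and 387, while the 5 genes stayed between −1.51 and −3.87 over the fits of all 15 dogs or of these groups. The cause of these changes was not tested. No paired analysis was possible because the groups held different dogs. The promoter search could not be run, as no sequences were used here, and TTC9 was not tested in “luteal regression over mid-gestation” with a mean count of at least 50. TTC9 had the fewest reads, yet its SE was the smallest of the 5 genes in each contrast. The 2 luteal regression dogs limited every contrast with that group.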
